A study of Mus musculus with 4 samples.

Results

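The genes described here are the subunits of the hypoxia-inducible factors (HIFs) and the enzymes that tie those factors to oxygen, 8 genes of the 43432 in the count table. They were taken by symbol: the alpha subunits Hif1a, Epas1 and Hif3a, the shared beta subunit Arnt, the prolyl hydroxylases Egln1 and Egln2, the asparagine hydroxylase Hif1an, and Vhl. The RNA came from 4 mouse tumours, 2 treated with dinutuximab and added small extracellular vesicles (sEVs) and 2 with dinutuximab alone. All were 9464D-GD2 neuroblastomas under the skin of female C57BL/6 mice. Both groups received 25 µg of dinutuximab, an antibody against the ganglioside GD2, 2 times per week for 5 treatments. The sEV group also received 20 µg of vesicles made by 9464D-GD2 cells. Every tumour was thus under the antibody and grew from 1 cell line, and no tumour without antibody or with sEVs alone is analysed here. The tumours are numbered 3 and 4 in each group, and the ages of the mice are not given in the sources used here.

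In cells with enough oxygen, the EGLN enzymes hydroxylate prolines of the HIF alpha proteins, the VHL protein binds the hydroxylated form, and a ubiquitin ligase marks it for destruction. When oxygen is short the alpha subunit survives, pairs with ARNT and binds DNA at sites with the core ACGTG or GCGTG. HIF1AN hydroxylates an asparagine in the alpha proteins and so blocks their coactivators, and EGLN1 and EGLN3 are themselves known HIF targets in many cell types. Most of this control acts on protein, which mRNA counts do not measure.

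None of the 7 oxygen sensor and HIF subunit genes that could be tested passed the threshold between tumours with and without sEVs. The same held for all 13823 genes tested, of which 0% passed. For 5 of the 7 the groups overlapped, and for the other 2 they did not, against 34.6% of all genes without overlap. The 2 with the lowest p were Epas1, which encodes HIF-2 alpha and averaged 1.79-fold lower with sEVs, and Egln1, the main oxygen-sensing prolyl hydroxylase, which averaged 1.26-fold lower. Hif1a made up more than 95% of the alpha subunit signal per length in every tumour, and Hif3a was close to absent.

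Libraries held 26164711 and 28187573 counts with sEVs and 26312447 and 24452699 without. Of the 9 neuroblastoma markers 3 passed the low-count filter, and Hand2, a transcription factor gene of sympathetic neuroblasts, was at 164 and 172 CPM (counts scaled to a common library size) with sEVs and at 154 and 145 CPM without. Dbh, the dopamine beta-hydroxylase gene of noradrenergic cells, had 0 counts in all 4 libraries. Macrophage genes were abundant, with Adgre1 between 63.4 and 76.9 CPM and Csf1r between 74.9 and 120.1 CPM, so that each value below is a mixture over tumour, immune and stromal cells. In such bulk tissue, fewer cells of a type and less RNA per cell cannot be told apart.

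Promoter windows of the prolyl hydroxylase genes are shown because each of them has a window that holds ACGTG, a form of the HIF core motif. The windows run from 250 bases before to 50 bases after the RefSeq start site (GRCm38.p6), 5′ to 3′ on the gene's own strand. Capitals mark ACGTG or its reverse complement CACGT, which overlap where CACGTG occurs. The form GCGTG was not searched for and is neither marked nor counted. Egln1 lies at chr8:124949205-124949504, Egln2 at chr7:27166753-27167052 and Egln3 at chr12:54203825-54204124, all on the minus strand.
Egln1: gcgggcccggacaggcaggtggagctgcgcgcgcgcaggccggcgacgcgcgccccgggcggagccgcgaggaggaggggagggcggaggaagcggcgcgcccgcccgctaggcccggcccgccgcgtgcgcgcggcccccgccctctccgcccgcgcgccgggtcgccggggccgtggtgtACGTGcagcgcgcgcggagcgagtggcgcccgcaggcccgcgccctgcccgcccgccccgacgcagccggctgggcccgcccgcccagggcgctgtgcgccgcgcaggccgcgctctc
Egln2: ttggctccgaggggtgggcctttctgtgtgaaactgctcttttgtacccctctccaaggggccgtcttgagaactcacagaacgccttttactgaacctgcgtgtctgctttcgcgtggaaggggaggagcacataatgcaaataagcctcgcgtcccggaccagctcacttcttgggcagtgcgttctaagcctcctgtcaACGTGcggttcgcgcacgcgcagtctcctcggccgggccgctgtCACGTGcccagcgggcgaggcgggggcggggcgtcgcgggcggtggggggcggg
Egln3: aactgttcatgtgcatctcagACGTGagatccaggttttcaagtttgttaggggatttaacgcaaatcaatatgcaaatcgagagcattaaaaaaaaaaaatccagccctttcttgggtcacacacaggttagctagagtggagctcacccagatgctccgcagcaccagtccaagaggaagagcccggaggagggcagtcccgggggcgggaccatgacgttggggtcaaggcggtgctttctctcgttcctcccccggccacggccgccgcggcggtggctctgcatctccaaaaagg

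The Egln1 window held 1 match, 68 bases before the start site, and the Egln3 window 1 match, 229 bases before it. The first Egln2 window held 3 matches at 2 places, which begin 48 and 4 bases before the start, the second being the palindrome. A second Egln2 window held 0. Among the 8 members 7 had a window in the table, Epas1 being the other, and 3 of those 7 held the motif in at least 1 window: Egln1, Egln2 and Hif1a. Of all 32851 promoter windows of that length, from 27025 genes, 19.6% held it. That share is per window and the members are counted per gene, so they are not like for like. A match describes letters in a window and not a bound site.

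Hif1a, on chromosome 12 from 73901375 to 73947530 (GRCm38, plus strand), encodes the alpha subunit found in most cell types. It had 179.9 and 221 CPM in tumours 3 and 4 with sEVs, against 178 and 196 CPM in tumours 3 and 4 without. The groups overlapped, and the spread inside the sEV group was wider than the distance between the groups. Means were 200.3 ± 29.0 CPM with sEVs and 187 ± 12.9 CPM without (SD, n = 2 each). The log2 fold change, sEV group over dinutuximab group, was 0.10 ± 0.15 (SE), with a 95% interval from -0.23 to 0.43 (edgeR quasi-likelihood adjusted p = 0.95, by the Benjamini-Hochberg method). Without sEV tumour 4 the value was -0.06. The antisense gene Gm15283 overlaps Hif1a on the other strand and had between 3 and 6 counts. A same-strand coding gene of GENCODE M21, Gm49321, also overlaps it and has no line in the count table, so how reads shared by both would be counted is unknown.

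Epas1, on chromosome 17 from 86753700 to 86833410 (plus strand), encodes HIF-2 alpha, known for its high level in endothelial cells and in sympathoadrenal tissue. It had 3.78 and 5.06 CPM in the sEV tumours, from 99 and 146 counts, against 6.82 and 9.05 CPM in the dinutuximab tumours, from 175 and 221 counts. Both sEV tumours lay below both dinutuximab tumours, and in each group tumour 4 was the higher. Means were 4.42 ± 0.904 CPM with sEVs and 7.93 ± 1.58 CPM without (SD, n = 2 each). The log2 fold change was -0.84 ± 0.27 (SE), with a 95% interval from -1.45 to -0.23. Its unadjusted p was 0.0129, and it did not pass over all genes (edgeR quasi-likelihood adjusted p = 0.727). Leaving out 1 library at a time gave values between -1.07 and -0.62.

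Hif3a, on chromosome 7 from 17031507 to 17062427 (minus strand), encodes an alpha subunit of which some forms inhibit HIF. It had 0 and 1 counts in the sEV libraries, against 1 and 4 counts in the dinutuximab libraries. These equal 0 and 0.0347 CPM with sEVs and 0.0390 and 0.164 CPM without, where 3 counts in a library correspond to between 0.104 and 0.123 CPM. Hif3a failed the low-count filter and was not tested, and no difference between groups could be read at this depth.

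Arnt, on chromosome 3 from 95434388 to 95497240 (plus strand), encodes the beta subunit with which each alpha subunit pairs. It had 78.3 and 102 CPM with sEVs, against 98.3 and 96.3 CPM without. The 2 sEV tumours lay on either side of both dinutuximab tumours. The log2 fold change was -0.11 ± 0.15 (SE; 95% interval -0.46 to 0.24; edgeR quasi-likelihood adjusted p = 0.948), and without sEV tumour 3 it was 0.06.

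**Figure D1:**
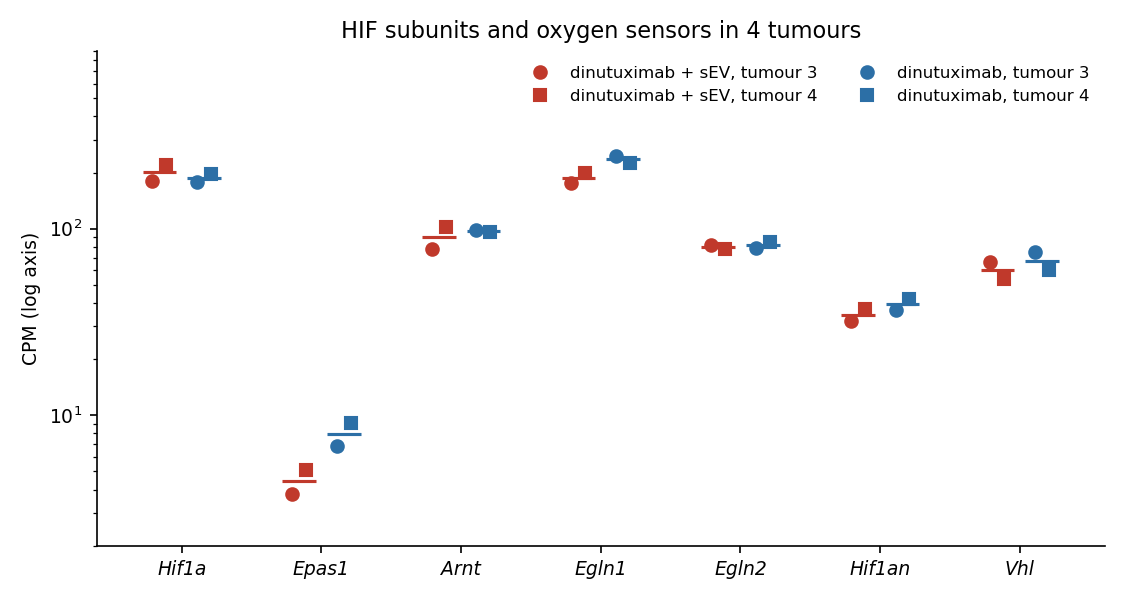
CPM on a log axis of the 7 members that passed the low-count filter, in each of the 4 tumours; circles are tumours numbered 3, squares tumours numbered 4, and short lines are group means. Epas1 sits far below the others, at 3.78 to 9.05 CPM, and is, with Egln1, the gene whose groups do not overlap.

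Among the hydroxylases, Egln1 (also called PHD2) is the one most responsible for HIF-1 alpha turnover in most cells. It lies on chromosome 8 from 124908587 to 124949324 (minus strand). It had 175 and 198 CPM with sEVs, against 245 and 226 CPM without. Both sEV tumours were below both dinutuximab tumours, and the means were 187 ± 15.8 CPM with sEVs and 236 ± 13.7 CPM without (SD, n = 2 each). The log2 fold change was -0.34 ± 0.13 (SE), with a 95% interval from -0.64 to -0.04. The unadjusted p was 0.0327 and the edgeR quasi-likelihood test did not call it over all genes (adjusted p = 0.841). Values with 1 library left out ran from -0.43 to -0.26.

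Egln2 (PHD1), a nuclear prolyl hydroxylase, lies on chromosome 7 from 27158658 to 27166802 (minus strand). It had 82.3 and 77.6 CPM with sEVs, against 79.2 and 85.2 CPM without. The groups overlapped, and its range over the 4 tumours was the narrowest in proportion among the members. Its log2 fold change was -0.04 ± 0.13 (SE; 95% interval -0.33 to 0.25; edgeR quasi-likelihood adjusted p = 0.98). With dinutuximab tumour 4 or sEV tumour 4 left out it was 0.01 and 0.00.

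Hif1an, the asparagine hydroxylase also known as FIH, lies on chromosome 19 from 44562850 to 44576274 (plus strand). It had 31.9 and 37.2 CPM with sEVs, against 36.8 and 42.1 CPM without, and the groups overlapped narrowly. The log2 fold change was -0.19 ± 0.15 (SE; 95% interval -0.54 to 0.16; edgeR quasi-likelihood adjusted p = 0.909).

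Vhl, the substrate receptor of the ligase and a tumour suppressor, lies on chromosome 6 from 113623959 to 113631633 (plus strand). It had 66.5 and 53.6 CPM with sEVs, against 74.6 and 60.4 CPM without. In both groups the tumour numbered 3 was the higher, and the groups overlapped. The log2 fold change was -0.17 ± 0.16 (SE; 95% interval -0.54 to 0.21; edgeR quasi-likelihood adjusted p = 0.93). It came to -0.34 without sEV tumour 3 and -0.01 without dinutuximab tumour 3.

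**Figure D2:**
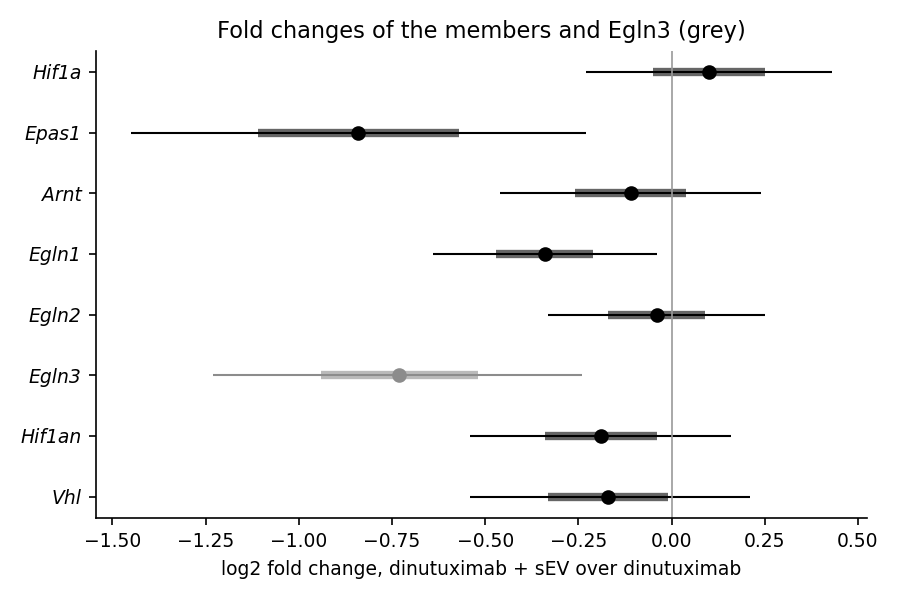
Log2 fold change (sEV group over dinutuximab group) of 7 members in black and of Egln3, the third prolyl hydroxylase and no member, in grey; thick bars are ± 1 SE and thin lines the 95% interval of the edgeR quasi-likelihood fit, which is not adjusted for the number of genes. Epas1 at -0.84, Egln3 at -0.73 and Egln1 at -0.34 are the genes whose interval lies below 0.

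By the edgeR quasi-likelihood test 0 of the 7 tested members passed in either direction, as did 0% of the 13823 genes tested. At an unadjusted p under 0.05, 0 members were higher (2.47% of all genes) and 2 were lower (3.10% of all genes), namely Epas1 and Egln1. The groups did not overlap for those same 2 of 7 members, against 34.6% of all genes. The fold changes of 6 of the 7 were negative, against 49.7% of all genes, and their median was -0.17, against 0.00 for all genes. In place of edgeR, limma-voom called 0 members and 0 genes in all, and DESeq2 called 0 members and 17 higher and 38 lower genes in all.

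Levels of different genes were compared per length, as CPM per kilobase of exon. In the mean over the 4 tumours Egln1 was the highest member at 58.8, followed by Hif1a at 32.9, Egln2 at 29.0, Vhl at 21.3, Arnt at 11.7, Hif1an at 5.60, Epas1 at 1.11 and Hif3a at 0.00885. Egln3 stood at 57.7 by the same measure. The ranges over tumours overlapped between Egln1 (48.8 to 68.3) and Egln3 (33.4 to 78.6), between Egln3 and Hif1a (30.2 to 37.5), and between Hif1a and Egln2 (27.7 to 30.4). Such ranges leave out that the genes were measured in the same tumours. With this length, Hif1a was above Egln2 within each of the 4 tumours. Egln3 was below Egln1 and Hif1a in sEV tumour 4 (33.4 against 55.0 and 37.5) and above both in the other tumours. From Egln2 downwards no range touched the next. With the longest coding transcript as length, an alternative chosen after seeing the data, the order was the same, but the ranges of Vhl (19.2 to 26.7) and Arnt (18.1 to 23.5) overlapped.

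The balance of the alpha subunits was taken as each gene's share of their summed counts per kilobase, since transcript isoforms cannot be read from counts per gene. The share of Epas1 was 2.17% and 2.36% in the sEV tumours, against 3.88% and 4.64% in the dinutuximab tumours. Their exact binomial 95% intervals, which cover counting error only, ended at 2.63% and 2.77% with sEVs and began at 3.34% and 4.06% without. No interval of 1 group reached one of the other. Hif1a held 97.8% and 97.6% with sEVs, against 96.1% and 95.3% without.

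Expressed as a ratio, Hif1a exceeded Epas1 per kilobase 45.1-fold and 41.4-fold in the sEV tumours, against 24.7-fold and 20.6-fold in the dinutuximab tumours. The log2 ratio of Epas1 to Hif1a differed by -0.94 between the groups (sEV minus dinutuximab), with SDs of 0.09 with sEVs and 0.19 without (n = 2 each). An exact two-sided permutation test gave p = 0.333, the smallest value that 2 tumours against 2 allow. Hif1a exceeded Arnt 3.12-fold and 2.95-fold per kilobase with sEVs, against 2.46-fold and 2.77-fold without, a log2 difference of 0.22 (exact permutation p = 0.333).

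Among the prolyl hydroxylases, Egln2 held 22.4% and 23.9% of the summed counts per kilobase with sEVs, against 16.1% and 19.2% without, and the groups did not overlap. The CPM of Egln2 itself did overlap (log2 fold change -0.04), while Egln1 (-0.34) and Egln3 (-0.73) in the same sum were lower with sEVs. Egln1 held 37.1% and 47.4% with sEVs, against 39.0% and 39.6% without, and Egln3 held 40.5% and 28.7% with sEVs, against 44.9% and 41.2% without. For Egln1 and Egln3 the 2 sEV tumours differed from each other more than the dinutuximab tumours did, and for Egln2 they differed less. Egln1 per kilobase was 1.66 and 1.98 times Egln2 with sEVs, against 2.42 and 2.07 times without (log2 difference -0.30, exact permutation p = 0.333). Egln3 was 1.81 and 1.20 times Egln2 with sEVs, against 2.78 and 2.15 times without (log2 difference -0.73, exact permutation p = 0.333).

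**Figure D3:**
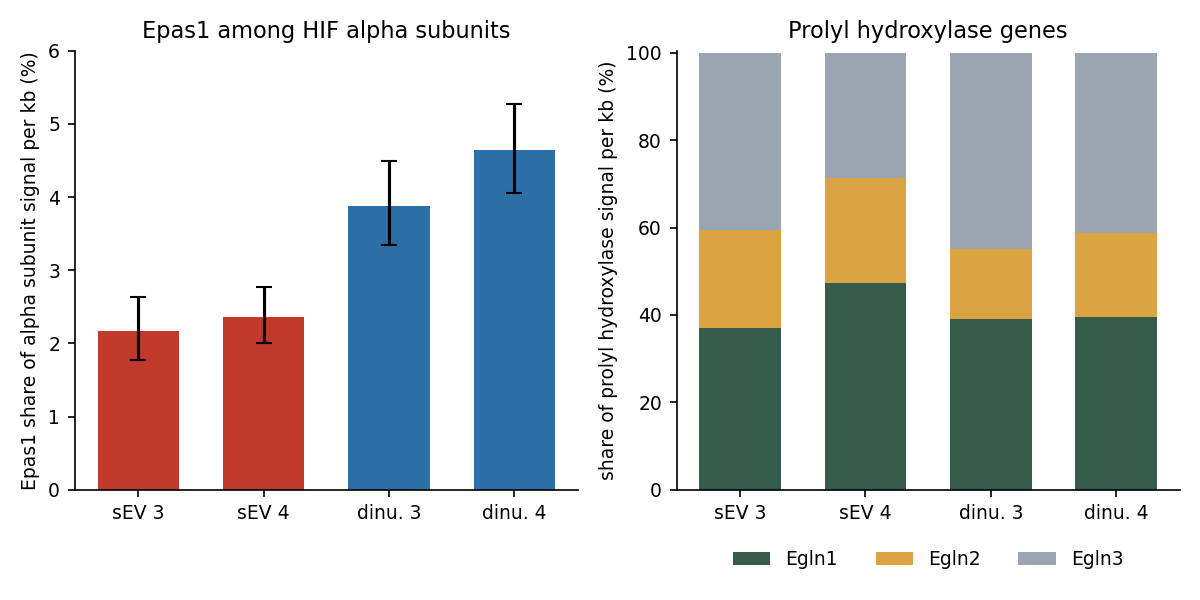
Left, Epas1 as a percentage of the summed alpha subunit counts per kilobase in each tumour, with exact binomial 95% intervals; right, the shares of Egln1, Egln2 and Egln3 in their sum; sEV tumours stand left of dinutuximab tumours (dinu.). Epas1 held 2.17% and 2.36% with sEVs, against 3.88% and 4.64% without. Egln2 is the hydroxylase whose share is larger in both sEV tumours than in both dinutuximab tumours, while its own CPM overlaps between groups.

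Set against Hif1a, the hydroxylase genes gave further ratios per kilobase. Egln1 was 1.60 and 1.47 times Hif1a with sEVs, against 2.26 and 1.89 times without (log2 difference -0.43, exact permutation p = 0.333). Hif1an was 0.158 and 0.150 times Hif1a with sEVs, against 0.184 and 0.192 times without (-0.29, exact permutation p = 0.333). Vhl was 0.727 and 0.478 times Hif1a with sEVs, against 0.825 and 0.606 times without (-0.26, exact permutation p = 0.667), and here the groups overlapped. In all 11 ratios were computed, and adjustment over them can only raise an exact p of 0.333.

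Markers of vessel walls, like Epas1, had lower sums in both sEV tumours than in both dinutuximab tumours. Inside the sEV group, tumour 3 had the lower Epas1 but the higher endothelial and pericyte and smooth muscle sums. Pecam1 was the largest term of the endothelial sum and was higher in sEV tumour 3 (67.0 against 59.6 CPM in sEV tumour 4). The other endothelial markers went both ways between these tumours, with Cdh5 lower in sEV tumour 3. Inside the dinutuximab group, the endothelial sum was higher in tumour 4, as Epas1 was, and the pericyte and smooth muscle sum was not. The 13 endothelial markers summed to 149 and 142 CPM with sEVs, against 173 and 202 CPM without. All 13 had counts and negative fold changes, with a median of -0.42, 0 of them passing the edgeR test over all genes. Pecam1, an endothelial adhesion molecule, had 67.0 and 59.6 CPM with sEVs, against 84.4 and 78.6 CPM without, and Cdh5, the vascular cadherin, had 14.7 and 15.6 CPM with sEVs, against 16.8 and 25.3 CPM without. Epas1 divided by the summed endothelial markers was 0.0253 and 0.0356 with sEVs, against 0.0394 and 0.0448 without, a log2 difference of -0.48 (exact permutation p = 0.333). The groups did not overlap, but sEV tumour 4 (0.0356) lay close to dinutuximab tumour 3 (0.0394). Divided by the summed macrophage markers, Epas1 was 0.00109 and 0.00145 with sEVs, against 0.00251 and 0.00292 without, a log2 difference of -1.11 (exact permutation p = 0.333).

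Pericyte and smooth muscle markers summed to 59.0 and 51.7 CPM with sEVs, against 105 and 98.9 CPM without. Their median log2 fold change was -0.94 over 7 tested of 8, and Cnn1 had 0 counts in all libraries. Acta2, a smooth muscle actin gene, had 5.12 and 4.19 CPM with sEVs, against 27.7 and 10.6 CPM without. Fibroblast markers summed to 886 and 739 CPM with sEVs, against 627 and 616 CPM without, but 3 of the 6 had positive and 3 negative fold changes, with a median of -0.08. Dcn, a proteoglycan gene, at 0.54, Col3a1 at 0.37 and Pdgfra at 0.28 were positive, and the collagen genes Col1a1 at -0.44 and Col1a2 at -1.57 and the proteoglycan gene Lum at -0.78 were negative, the fibroblast genes other than Col1a1 being named after their values were seen. Macrophage markers had higher sums, 3479 and 3479 CPM with sEVs, against 2713 and 3098 CPM without, with a median of 0.21 over 12 tested of 12 and none at 0. Red blood cell markers summed to 70.1 and 42.3 CPM with sEVs, against 35.0 and 21.2 CPM without, and all 5 had positive fold changes with groups that did not overlap (18.1% of all genes), unadjusted edgeR p-values under 0.05 (2.47% of all genes) and a median of 1.07. Skeletal muscle markers summed to 8.25 and 4.92 CPM with sEVs, both below the dinutuximab tumours, the higher of which had 12.4 CPM, with a median of -0.75 over 5 tested of 6. Skin markers, with 0 tested of 3, summed to 1.64 CPM in sEV tumour 3 and 0.208 CPM in sEV tumour 4, against 0.234 and 0.0409 CPM without. No gene of these lists passed the edgeR test over all genes. The share of counts on genes that catch ribosomal RNA was 5.00% and 4.30% with sEVs, against 5.98% and 6.28% without. The part of these differences in the Epas1 and Egln1 values was not tested.

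**Figure D4:**
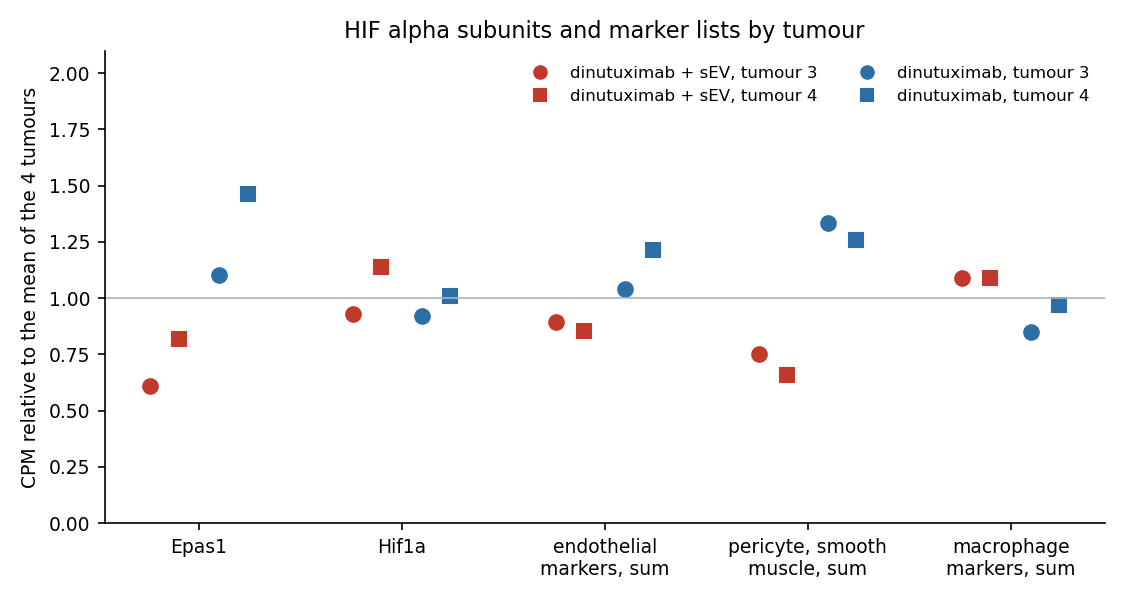
Epas1, Hif1a and the summed CPM of 3 marker lists in each tumour, divided by the mean of the 4 tumours (linear axis from 0); colours and symbols are those of the plot of levels. Epas1, the endothelial sum (149 and 142 CPM with sEVs, against 173 and 202 CPM without) and the pericyte and smooth muscle sum are lower in both sEV tumours, the macrophage sum is higher, and Hif1a overlaps between groups.

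Across the 4 tumours, the protein-coding genes closest to Epas1 were Mthfd2, Cxcr4 and L3mbtl3. Likeness was the root-mean-square difference in log2 CPM after each gene was centred on its mean over the 4 tumours, and it was 0.0639, 0.0952 and 0.0982. These were the only 3 of 10037 genes within 0.1 of Epas1. Mthfd2, an enzyme of mitochondrial folate metabolism, had 35.0 and 44.0 CPM with sEVs, against 61.5 and 88.5 CPM without. Cxcr4, a chemokine receptor gene, had 8.17 and 9.15 CPM with sEVs, against 13.8 and 17.1 CPM without. Among the nearest to Hif1a were Slc37a3 and Plekha3 (0.0124 and 0.0130), but 971 genes lay within 0.1 of its flat profile. With 4 points such likeness is a description of these libraries.

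Of 20 further regulators of HIF, which include the partners of VHL in its ligase, coactivators and chaperones, 20 were tested, 0 passed in either direction by edgeR, and 7 had positive and 13 negative fold changes. Their median was -0.04, against 0.00 for all genes. Egln3 (PHD3), the prolyl hydroxylase with the strongest known response to hypoxia, had 142 and 88.8 CPM with sEVs, against 209 and 174 CPM without. Its log2 fold change was -0.73 ± 0.21 (SE; edgeR adjusted p = 0.68). Without sEV tumour 3 it was -1.12, and without sEV tumour 4 it was -0.44. Arnt2, the neural relative of Arnt, had 0.802 and 0.659 CPM with sEVs, against 1.56 and 1.27 CPM without, and did not pass (-0.95 ± 0.39, edgeR adjusted p = 0.861).

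Cited2, whose product competes with HIF-1 alpha for its coactivators p300 and CBP, had 128 and 67.1 CPM with sEVs, against 69.3 and 57.6 CPM without. The groups overlapped, the high value being that of sEV tumour 3 (0.62 ± 0.27, edgeR adjusted p = 0.885). The other members of the ligase were near 0: Cul2 at 0.10, Rbx1 at 0.01, Elob at -0.05 and Eloc at -0.08 on the log2 fold change scale. These 4 were named after their values were seen.

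Among 4 other oxygen-dependent dioxygenases, 3 were tested and 0 passed. Ado, a cysteamine dioxygenase that also acts on protein N termini, had 97.7 and 108 CPM with sEVs, against 116 and 120.4 CPM without (-0.20 ± 0.13, edgeR adjusted p = 0.908). The histone demethylases Kdm6a and Kdm5a had log2 fold changes of 0.09 and 0.00. Of 11 relatives of HIF with the same bHLH-PAS fold, 6 were tested, 0 passed, and Sim1, Sim2 and Npas1 had 0 counts in all libraries. The clock genes Arntl (-0.28 ± 0.17, edgeR adjusted p = 0.908) and Clock (-0.17 ± 0.14, edgeR adjusted p = 0.911) and the aryl hydrocarbon receptor repressor Ahrr (0.36 ± 0.52, edgeR adjusted p = 0.95) were the nearest to the threshold.

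The 23 HIF-responsive genes, which Egln3 belongs to as well, were all tested and 0 passed. Their median log2 fold change was -0.49, against -0.17 for the 7 tested members and 0.00 for all genes. At an unadjusted p under 0.05, 16 of the 23 were lower (3.10% of all genes) and 0 higher (2.47%). In 17 of 23 both sEV tumours lay below both dinutuximab tumours (16.5% of all genes), and in 3 both lay above (18.1%). This list overlaps one known to be lower in these tumours before it was drawn up, and so it is no independent evidence.

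Slc2a1, the glucose transporter gene, had 272 and 263 CPM with sEVs, against 583 and 469 CPM without (-0.98 ± 0.14, edgeR adjusted p = 0.36). Hk2, a hexokinase gene, had 49.6 and 59.2 CPM with sEVs, against 96.8 and 117 CPM without (-0.98 ± 0.15, edgeR adjusted p = 0.36). Bhlhe40, a transcriptional repressor gene, had 90.0 and 72.7 CPM with sEVs, against 134 and 131 CPM without (-0.71 ± 0.15, edgeR adjusted p = 0.463). The 3 positive genes were Pdk1 at 0.28, Pfkfb4 at 0.19 and Pfkfb3 at 0.15, named after their values were seen. The list median was -0.65 without dinutuximab tumour 4 and -0.38 without dinutuximab tumour 3.

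**Figure D5:**
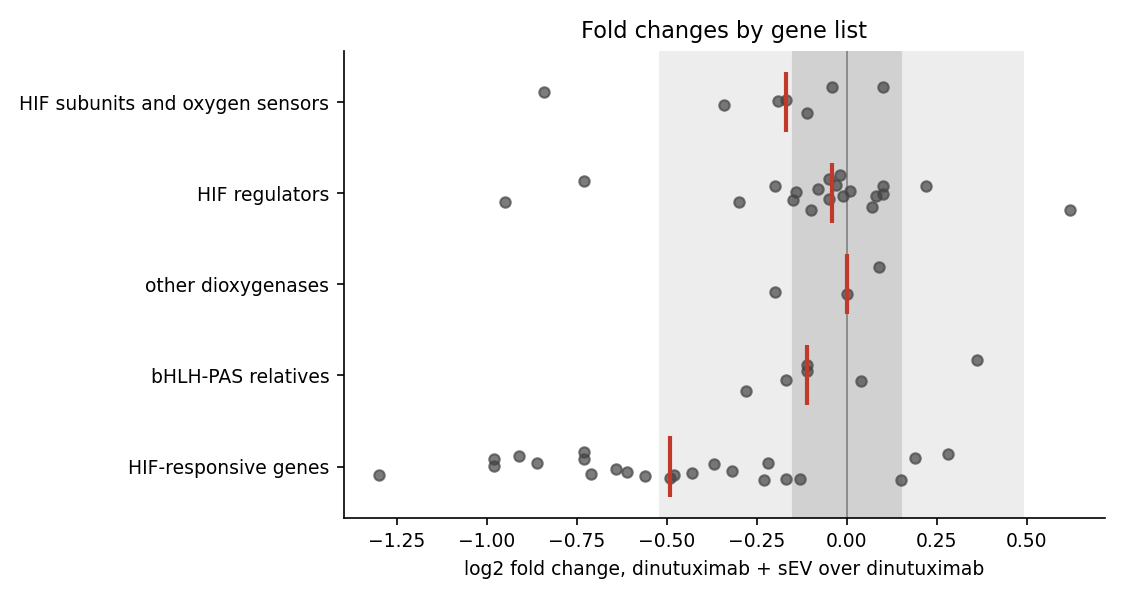
Log2 fold change (sEV group over dinutuximab group) of each tested gene in the members and in 4 further lists; each point is a gene, red bars are list medians, the dark band holds the middle 50% of all 13823 genes (-0.15 to 0.15) and the light band the middle 90% (-0.52 to 0.49). The HIF-responsive genes have a median of -0.49, while the members, Epas1 apart, lie between -0.34 and 0.10.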

How the data were processed

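Raw counts for each Ensembl gene were deposited by the authors, once for the whole series and again for each sample, and all 173728 values were the same in the 2 versions. STAR, SAMtools, HTSeq and mm10 are named in the submitters' processing notes. Versions, annotation release and strand setting are not given in the sources used here, so counts of overlapping genes are uncertain. Libraries were stranded mRNA and run on 2 lanes, per the labels' protocols. Names, coordinates and exon lengths came from GENCODE M21 (GRCm38), which named 42462 IDs. Promoter windows came from RefSeq.

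The 13823 genes kept by filterByExpr were tested with edgeR 4.0.16 in R 4.3.3 (quasi-likelihood F test, TMM factors from 0.976 to 1.02, group as the only term, Benjamini-Hochberg threshold of 0.05). CPM used the TMM-scaled library sizes. Shares and ratios used counts per kilobase of the union of exons. Intervals for shares are exact Clopper-Pearson intervals at 95%. DESeq2 1.42.0, limma-voom (limma 3.58.1), other scalings, other filters and omission of each library were alternatives. The tests were also run on simulated counts drawn with a common spread for all genes, and the outcome is not reported here.

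The members, lists and named genes were chosen with earlier results of these data known. The text names all 8 members, Egln3, up to 3 genes of lowest p per pathway list, the 3 genes nearest to Hif1a and Epas1 among protein-coding genes of at least 5 CPM, and fixed marker genes. Some of these genes are not reported here. The 2 tumours of a group are biological replicates, per the series' design text. Chi-square over its degrees of freedom between libraries was 26.4 within the sEV group and 23.9 within the dinutuximab group. Across the groups it ran from 22.6 to 35.8, so no library looked like a repeat of another.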

Additional observations from a re-analysis of the deposited data

How the results depend on the processing

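In all 16 refits tried, 0 of the 7 tested members passed the adjusted threshold, and Epas1, Egln1, Vhl and Hif1an kept a negative value. These refits include a fit of the counts given per sample, which are the same values and so could give no other result. With 1 library left out, Hif1a ran from -0.06 (without sEV tumour 4) to 0.23 and Arnt from -0.31 to 0.06 (without sEV tumour 3). Egln2 ran from -0.09 to 0.01 (without dinutuximab tumour 4) and was 0.00 without sEV tumour 4. Over all genes the count of calls was 0 with edgeR, 55 with DESeq2, 262 without a low-count filter, 67 with the tumour number as a replicate block, and between 0 and 316 with 1 library left out; the calls without 1 library came when sEV tumour 3 (132) or sEV tumour 4 (316) was omitted. In these fits the single sEV library takes its spread from the dinutuximab pair alone. Egln3 passed without the filter (edgeR adjusted p = 4.1e-04) and in the replicate block fit (0.0208), and without sEV tumour 3 in such a fit (2.5e-04); over all alternatives its adjusted p ran from 2.5e-04 to 0.854. The tumours share a number whose meaning is not given, the correlation of their deviations over genes was 0.0659, and with the replicate block Epas1 had -0.84 (edgeR adjusted p = 0.275) and Egln1 -0.34 (0.408). List medians with 1 library left out ran from -0.12 to 0.03 for HIF regulators, from -0.14 to 0.15 for other dioxygenases and from -0.65 to -0.38 for HIF-responsive genes. With the longest coding transcript as length, Hif1a held 98.1% with sEVs and 96.5% without, Epas1 1.85% and 3.49%, and Egln2 28.5% and 22.2%, while Egln1 held 37.1% without sEVs. With no length correction Egln2 held 21.0% with sEVs, and Egln1 46.3% and Egln3 37.6% without. The cause of these other changes was not tested. Epas1, at 99 to 221 counts, and Hif3a, at 0 to 4, are the members that depth limits most.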
